A study of Mus musculus with 4 samples.

Results

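The cultures compared were 2 of a series of 4: STAT5-deficient CD4+ T cells grown under Th17 conditions with IL-2 added, and STAT3-deficient CD4+ T cells grown under the same conditions with IL-2 neutralised. They were chosen by sample title, and each was measured on 1 array. All 4 cultures began as naive CD4+CD44-CD62L+ T cells, sorted from the spleens and lymph nodes of mice of strain C57BL/6J with a transgenic T cell receptor, OT2. Each was activated for 72 h on plate-bound anti-CD3 with anti-CD28 in the presence of TGF-beta (2 ng/ml), IL-6 (20 ng/ml) and an antibody against IL-4. The STAT3-deficient cells carried CD4-Cre with stat3 fl/fl, and their control, STAT3 wild type, carried stat3 fl/fl without Cre; both received anti-IL-2 (10 µg/ml). The STAT5-deficient cells carried CD4-Cre with stat5 fl/fl, and STAT5 wild type carried stat5 fl/fl alone; both received IL-2 (100 IU/ml). The Cd4 promoter drives Cre during thymic development, so the cells matured without the factor before they were cultured. The genotype field of both deficient samples ends in the words for wild type, against their titles.

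The deleted gene, the floxed line and IL-2 all changed together between the deficient cultures, and their parts in any difference cannot be told apart. The 2 controls differed in line and IL-2 but not in deletion. Their difference, STAT5 wild type minus STAT3 wild type, is given beside many results, though not all, as the background of those factors. It shares no array with the difference between the deficient cultures. With 1 array per culture there is no spread between replicates, no test and no p-value. The values are read as log2 levels, so a difference of 1 is 2-fold. Higher and lower mean that the STAT5-deficient array lay at least 2-fold above or below the STAT3-deficient array. Levels under 6.20, the median of all deposited values, cannot be told from background, and a fold is given only where both arrays lay above it. In a bulk culture, fewer cells of a type and less RNA per cell cannot be told apart.

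STAT3 and STAT5 are transcription factors that wait in the cytoplasm until a cytokine receptor activates a Janus kinase, which phosphorylates them. IL-6 and IL-21 act mainly through STAT3, which is needed for the Th17 programme of IL-17 production. IL-2 acts mainly through STAT5, which supports Foxp3 and regulatory T cells and is known to restrain IL-17. The comparison sets a culture in which only the first pathway is genetically intact beside one in which only the second is, although the second culture was also deprived of IL-2.

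The array gave 18194 genes at least 1 probe set that names no other gene, and the 12440 with a level above 6.20 on 1 or more arrays were compared. Only such genes count as measured members of the gene lists given below. In STAT5-deficient cells 1015 were higher (8.16% of the genes compared) and 383 lower (3.08%) than in STAT3-deficient cells, 11.2% in all, and 65 and 46 of these passed 8-fold. Between the controls 292 genes were higher (2.35%) and 367 lower (2.95%), 5.3% in all. In 37 of the called genes both deficient arrays lay under 6.20. The median gene differed by 0.33 between the deficient cultures and by 0.06 between the controls, so most genes lay a little higher on the STAT5-deficient array. That shift sets the split: 72.6% of called genes were higher as deposited. Centring the arrays on their medians gave 61.6% (770 higher, 6.2% of genes, and 479 lower, 3.86%). Subtracting a loess curve through the differences gave 45.1% (494 higher, 3.97%, and 602 lower, 4.84%). Averaging a gene's probe sets gave 810 higher (7.22%) and 312 lower (2.78%). The curve ran from 0.16 to 0.48, so differences close to 1 are uncertain while those past 2 keep their call. The STAT3-deficient array stood apart from the rest, with correlations over all probe sets of 0.965 to 0.966 against 0.975 to 0.984 among the other 3.

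**Figure D1:**
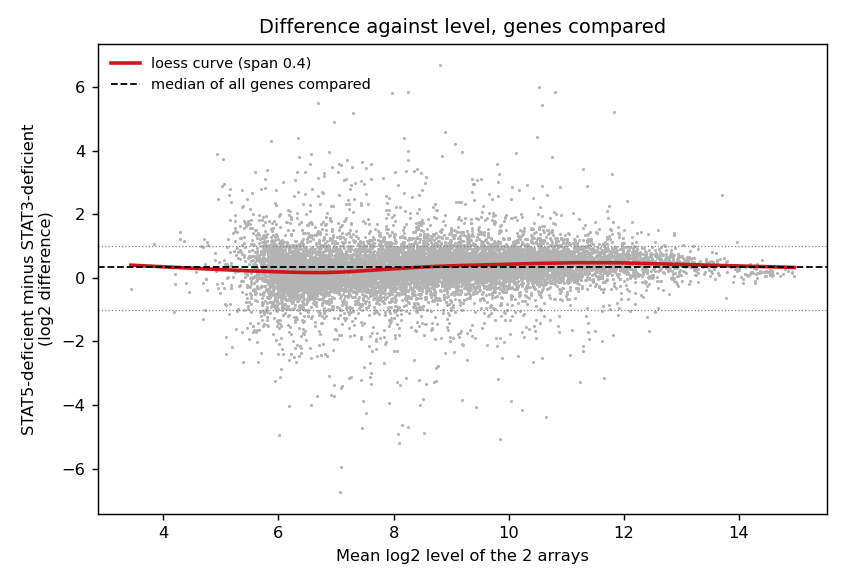
Difference between the STAT5-deficient and STAT3-deficient arrays (log2) against the mean log2 level of both, 1 point per gene for 12440 genes. The dashed line is the median of 0.33, the dotted lines mark 2-fold, and the loess curve lies above 0 along its whole length, from 0.16 to 0.48.

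CD4 T cell genes were similar on both arrays. Of 11 measured identity genes, 0 passed 2-fold as deposited and the median was -0.02; Cd3e, a chain of the T cell receptor complex, stood at 12.09 in STAT5-deficient and 12.11 in STAT3-deficient cells. Cd4 stood at 10.88 and 11.84 (-0.96) by its chosen probe set. It passed 2-fold with arrays centred (-1.07), with probe sets averaged (-1.08) and after loess centring (-1.43). Its other probe set passed as deposited, at 8.15 and 9.35 (-1.20). The summed level of 6 B cell markers ranged from 8.48 to 8.78 over the 4 arrays, that of 9 myeloid markers from 9.24 to 9.35, that of 6 NK cell markers from 7.23 to 7.87 and that of 2 CD8 T cell markers from 8.14 to 8.59. Markers of gamma delta T cells (3, from 7.60 to 8.08) and of erythroid cells (3, from 6.92 to 7.21) were as narrow. Of these markers, among those above 6.20 on at least 1 array, Klre1 (NK cells) alone passed 2-fold, at 6.43 against 5.41 (1.02), but not with arrays centred (0.91) or after loess centring (0.83). The part of such cells in the results was not tested. Above 6.20 on all 4 arrays lay Csf1r (7.12 to 7.73), Flt3 (6.41 to 7.07) and Cd68 (6.39 to 6.94) of the myeloid list and Cd22 (6.31 to 6.90) of the B cell list. The same held for Cd8b1 of the CD8 T cell list (7.70 to 8.06). Among the defining markers Ncr1 (NK cells), Adgre1 and Itgam (myeloid cells), Ms4a1 (B cells) and Alas2 (erythroid cells) lay under 6.20 on all 4 arrays.

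Each targeted gene was low on the array whose title names it. Stat3 stood at 12.80 in STAT5-deficient and 9.93 in STAT3-deficient cells (2.88, or 7.34-fold), with 12.33 and 12.87 in STAT5 and STAT3 wild type. Its other probe sets differed by 3.17, 0.64 and -0.72, so not every probe set followed. Stat5a stood at 5.91 against 10.59 (-4.68) and Stat5b at 6.09 against 10.97 (-4.88), with controls between 10.73 and 11.39 for both. The other Stat5b probe set stayed above 6.20, at 6.87 against 8.67 (-1.79). Which exons were removed is not in the labels, and probe sets that lie elsewhere in the gene check nothing. No other measured gene of the STAT and JAK list passed 2-fold: Stat2, Stat4, Stat6, Jak1, Jak2, Jak3 and Tyk2 lay between -0.49 and 0.53.

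The Th17 programme stood higher in STAT5-deficient cells. Of 11 measured genes of a Th17 list 8 were higher and 0 lower (median 2.02, against 0.33 for all genes), whereas between the controls 0 were higher and 2 lower (median -0.28). After loess centring 7 were higher and 1 lower, since Rora came to 0.96 and Ccr6 to -1.12. Il17f, Il22 and Il23r were not analysed here.

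Il17a, which encodes the defining cytokine IL-17A, stood at 14.44 in STAT5-deficient and 9.23 in STAT3-deficient cells (5.21, 37.1-fold), with 13.85 and 14.12 in STAT5 and STAT3 wild type. Il21, whose product acts back on the cell through STAT3, stood at 10.87 against 5.07 (5.80), with 11.47 and 11.30 in the controls. For both cytokines the STAT3-deficient array lay below the other 3, which stayed within 2-fold of each other by these probe sets. The other Il21 probe set was also lowest in STAT3-deficient cells (4.36). It placed the STAT5-deficient array (9.28) more than 2-fold below STAT5 wild type (10.74) and STAT3 wild type (11.63). Il1r1, a receptor for IL-1, which supports Th17 cells, stood at 10.37 against 5.99 (4.39), and was the one of the 3 whose controls differed by more than 2-fold, the other way, at 8.62 and 10.06 (-1.44).

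The transcription factors of the programme followed with smaller differences. Ahr, the aryl hydrocarbon receptor, stood at 12.30 against 9.46 (2.84, 7.16-fold), and Batf, an AP-1 family factor needed for Th17 cells, at 11.66 against 9.42 (2.23). Maf, which promotes Il10 and Il21, differed by 2.02, Hif1a, the hypoxia factor, by 1.51 and Rora, a nuclear receptor, by 1.44. Their controls lay within 0.29 of each other except for Rora (-1.13). Irf4 differed by 0.58, inside the 2-fold limit, and the homing genes Ccr6 (-0.66) and Ccl20 (-0.03) did not follow the cytokines: Ccr6 stood between 10.96 and 12.41 on every array.

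Known IL-6 and STAT3 target genes showed the same direction, with 11 of 16 higher, 0 lower and a median of 2.02. Between the controls 1 was higher, 0 lower, and the median was 0.00. This list is not independent of the others. Il21, Batf and Maf are also in the Th17 list, Il4ra and Pim1 among IL-2 and STAT5 target genes, and Bcl6 and Il6st among genes repressed by IL-2. Socs3, the feedback inhibitor of the IL-6 receptor, stood at 11.17 in STAT5-deficient and 7.20 in STAT3-deficient cells (3.97, 15.6-fold), with 11.62 and 12.02 in the controls, and its 3 probe sets differed by 3.11 to 3.97. Il10, an anti-inflammatory cytokine gene, stood at 8.26 against 4.47 (3.80), with 10.39 and 9.39 in the controls. Bcl3, a nuclear IκB protein, differed by 2.08, Il4ra, a chain of the IL-4 receptor, by 2.02 (4.06-fold), Fos by 2.37 (5.18-fold) and Il6st, the shared signalling chain gp130, by 1.16. Some members did not pass: Pim1 stood at 0.62, Gadd45g at 0.83, Ptger2 at 0.18 and Cebpb at -0.33. Loess centring left 9 higher, as Il6st came to 0.80 and Junb from 1.06 to 0.59.

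Bcl6, the repressor that defines follicular helper cells, is a known binding target of both factors. It stood at 8.90 in STAT5-deficient and 6.89 in STAT3-deficient cells (2.02, 4.05-fold), with 7.31 and 7.56 in the controls. By this probe set the 2 deficient arrays were the extremes, the STAT5-deficient array being the highest of the 4 and the STAT3-deficient array the lowest. Its other probe set was also highest in STAT5-deficient cells (7.24), but the STAT3-deficient array was not the lowest. There the STAT3-deficient array (5.92) and the STAT5 and STAT3 controls (5.70 and 5.86) all lay under 6.20. Follicular helper genes had 5 of 12 higher and 0 lower (median 0.26, or -0.10 after loess centring). Pou2af1, a transcriptional coactivator, stood at 11.17 against 6.96 (4.21, 18.5-fold), Tox2, a DNA-binding factor of follicular helper cells, differed by 2.90 and Cxcr5, their homing receptor, by 1.52. The controls of Pou2af1 (-1.14) and Cxcr5 (-1.24) differed the other way. Pdcd1 (0.14) and Icos (-0.84) did not pass, and loess centring took Icos to -1.32 and Sh2d1a to -1.17.

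**Figure D2:**
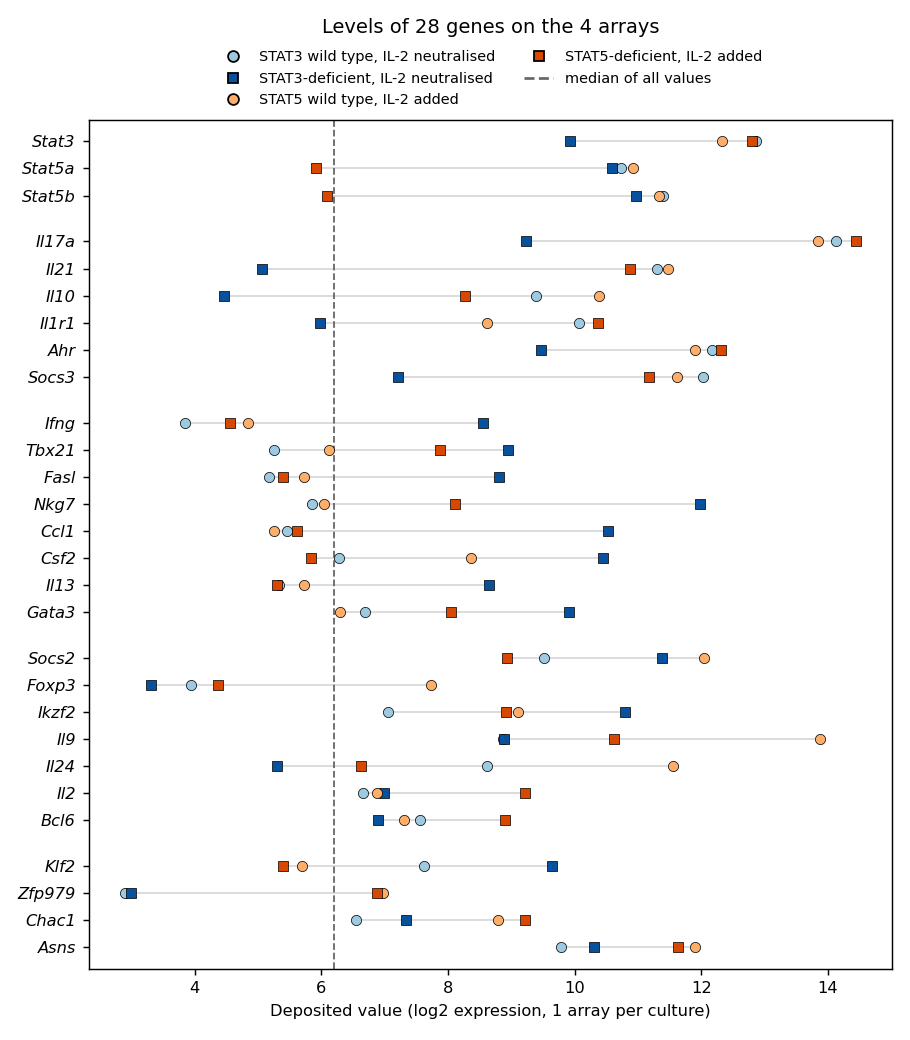
Deposited log2 level of 28 genes on each of the 4 arrays, 1 point per array; circles are controls, squares deficient cells, blue IL-2 neutralised and orange IL-2 added, and the dashed line is 6.20. The dark blue square lies alone on the left for Il17a, Il21, Il10 and Socs3 and alone on the right for Ifng, Fasl, Nkg7 and Ccl1, while Zfp979 divides by line with 6.88 and 6.98 against 2.99 and 2.90.

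The largest increases included matrix and membrane genes beside the cytokines. Tgfbi, an extracellular matrix protein, stood at 12.15 in STAT5-deficient and 5.47 in STAT3-deficient cells (6.68), and its 4 probe sets differed by 3.58 to 8.13. Its controls ran the other way, at 8.32 with IL-2 and 11.03 without (-2.71). By the chosen probe set each of the 4 arrays thus differed from every other by more than 2-fold. Not every probe set showed this: STAT5-deficient cells lay within 2-fold of STAT3 wild type at 12.07 against 11.33, and at 9.27 against 8.74. Tmem176a and Tmem176b, membrane proteins encoded side by side, differed by 6.00 (64.0-fold) and 5.45 (43.6-fold), with controls within 0.21 of each other. Timp1, an inhibitor of metalloproteinases, stood at 13.73 against 7.89 (5.84, 57.2-fold), while its controls stood at 13.95 and 13.78.

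Olfm2 (5.83), Gcnt2, a glycosyltransferase (5.50), Frmd4b (5.17) and Cyp1b1, a classical target of Ahr (4.89), lay under 6.20 on the STAT3-deficient array, so their sizes are uncertain. Gcnt2 is also uneven between probe sets, with the 6 above 6.20 differing by 1.55 to 5.50. Pltp, a phospholipid transfer protein (4.57, 23.7-fold), and Mt2, a metallothionein (4.42, 21.3-fold), completed the 12 largest increases together with Il21 and Il17a. For both Pltp and Mt2 the controls lay in the opposite order, at -1.12 and -1.06.

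Genes of the Th1 fate stood lower in STAT5-deficient than in STAT3-deficient cells. Of 13 measured members 8 were lower and 0 higher (median -1.21), although between the controls the list's median lay on the other side, at 0.55 with 1 higher and 0 lower. Ifng, the Th1 cytokine, stood at 4.56 in STAT5-deficient and 8.56 in STAT3-deficient cells (-3.99), with 4.84 and 3.84 in the controls, so that only the STAT3-deficient array rose above background. Fasl, a death ligand, stood at 5.40 against 8.80 (-3.40), again with both controls under 6.20. Il18r1, a receptor chain for IL-18, differed by -2.02 (4.05-fold), with its controls the other way (1.34). The chemokine genes Ccl3, Ccl5 and Ccl4 differed by -1.94, -1.82 and -1.21, and Tnf by -1.29.

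Tbx21, the gene of the Th1 factor T-bet, stood at 7.87 in STAT5-deficient and 8.94 in STAT3-deficient cells (-1.07, 2.10-fold), and at 6.13 and 5.25 in the controls. Both deficient arrays thus lay more than 2-fold above both controls for Tbx21, which was not so for Ifng. Cxcr3, a T-bet target, stood at 0.60, Stat4 at -0.49 and Il12rb2 at -0.54, all within 2-fold.

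Gata3, the Th2 regulator, had the same arrangement as Tbx21: 8.05 in STAT5-deficient and 9.91 in STAT3-deficient cells (-1.86, 3.62-fold), against 6.30 and 6.69 in the controls. Il13, a Th2 cytokine, stood at 5.29 against 8.65 (-3.36) with both controls under 6.20, and Ccr8, a chemokine receptor, at 8.63 against 11.14 (-2.51). Other cytokine genes of the STAT3-deficient array were Csf2, which encodes GM-CSF (5.84 against 10.45, -4.62), and Il3 (5.10 against 8.82, -3.72). The controls of Csf2 stood in the opposite order, at 8.36 with IL-2 and 6.29 without (2.07), and those of Il3 lay under 6.20. In the Th2 and Th9 list as a whole 3 of 8 were higher and 3 lower.

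Il9 and Il24, cytokine genes of which the first is known to depend on STAT5, were also compared. Il9 stood at 10.61 in STAT5-deficient and 8.89 in STAT3-deficient cells (1.72, 3.30-fold), against 13.88 in STAT5 wild type and 8.87 in STAT3 wild type. Il24 stood at 6.63 against 5.30 (1.33), with 11.55 and 8.61 in the controls. For both genes the difference between the deficient cultures was in the same direction as that between the controls (5.01 and 2.94) and smaller.

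Chemokine and cytotoxic genes were split. Of 19 measured chemokines and chemokine receptors 9 were lower and 4 higher (median -0.66). Ccl1 stood at 5.62 in STAT5-deficient and 10.52 in STAT3-deficient cells (-4.90), Ccl22, a ligand of Ccr4, at 5.96 against 9.88 (-3.93) and Xcl1, lymphotactin, at 6.60 against 10.42 (-3.82, 14.1-fold); in all 3 the controls lay close to or under 6.20. The higher members were the receptors Cxcr6 (11.07 against 7.97), Cxcr4 (11.98 against 9.37) and Cxcr5, together with Cxcl10, which lay under 6.20 on both deficient arrays. For Cxcr6 the controls differed the other way (-2.45). Ccr7, the lymph node homing receptor, differed by -1.99 (3.97-fold) with controls at 11.65 and 11.57.

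In the cytotoxic list 3 of 11 genes were lower and 2 higher. Nkg7, a granule membrane protein, stood at 8.11 against 11.98 (-3.86, 14.6-fold), whereas Gzmb, which encodes granzyme B, stood at 9.29 against 8.25 (1.04). Gzmb came to 0.93 with arrays centred, and its controls differed by 2.24. Of the killer lectin-like genes Klrk1, which encodes NKG2D, was just past 2-fold lower, at 5.84 against 6.84, with controls the other way (1.83). Klrd1 (-0.21), Klrc1 (0.31) and Klrg1 (0.21) did not pass.

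Interferon-induced genes stood lower, with 10 of 25 lower and 1 higher (median -0.74), against 3 lower and 1 higher between the controls (median -0.11). Isg20, a ribonuclease, stood at 6.25 in STAT5-deficient and 8.91 in STAT3-deficient cells (-2.66, 6.34-fold), with 6.02 and 6.07 in the controls. Iigp1, an immunity-related GTPase, differed by -3.34, Usp18, which removes ISG15 from proteins, by -1.94, Oas3 by -1.90, Igtp by -1.81, Irf7, the inducer of type I interferon genes, by -1.58 and the RNA sensor gene Ifih1 by -1.40. Between the controls Iigp1 differed the other way (1.41). Several of the best known members passed in neither direction: Ifit3 stood at -0.25, Oas1a at -0.11 and Rsad2 at 0.29. Bst2 was higher at 1.13. Xaf1 gave the largest decrease of all genes by its chosen probe set (3.70 against 10.44, -6.75), but its other probe set stood at 0.83.

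Regulatory T cell genes did not move as a block. Of 16 measured members 9 were lower and 2 higher (median -1.03), while between the controls 5 were higher and 1 lower (median 0.28). Foxp3, the defining regulator, was 1 of the 2 counted as higher, but it stood at 4.36 and 3.32, under background in both deficient cultures, and above it only in STAT5 wild type (7.73). Ikzf2, which encodes Helios, stood at 8.91 in STAT5-deficient and 10.80 in STAT3-deficient cells (-1.89, 3.70-fold), with 9.11 and 7.06 in the controls. Nrp1 (-1.77), Ikzf4, which encodes Eos (-1.65), Izumo1r, the folate receptor 4 (-1.83), and the TNF receptors Tnfrsf9 (-2.41, 5.32-fold), Tnfrsf18 (-1.66) and Tnfrsf4 (-1.06) were lower too. Izumo1r had controls that differed the other way (1.54). Entpd1, just past 2-fold lower, came to -0.61 with its probe sets averaged, although that average lay under 6.20 on every array. Ctla4, an inhibitory receptor, stood at 12.93 against 11.52 (1.42), or 0.96 after loess centring. Il2ra, the high-affinity IL-2 receptor chain, stood at 12.50 against 11.78 (0.72, or 0.26 after loess centring). Its other probe set just passed 2-fold, at 12.36 against 11.34 (1.01).

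The list of IL-2 and STAT5 target genes did not divide in 1 direction. Of 17 measured members 2 were higher (Gzmb, and Il4ra, which is also in the IL-6 and STAT3 list) and 3 lower. Their median was 0.18 against 0.33 for all genes, or -0.28 with 1 higher and 5 lower after loess centring. Socs2, a feedback inhibitor, had the widest gap: 8.93 in STAT5-deficient and 11.37 in STAT3-deficient cells (-2.44, 5.44-fold), with 12.05 and 9.51 in the controls (2.54). The STAT3-deficient array, without IL-2, was thus closer to the control that received IL-2 than to its own control. Pim2, a survival kinase, differed by -1.60, Lta, lymphotoxin, by -0.95 and Bcl2 by -0.71. Cish, another feedback inhibitor and classical STAT5 target, stood between 12.24 and 12.77 on all 4 arrays (0.18). Il2 itself was higher in STAT5-deficient cells, at 9.22 against 6.99 (2.22, 4.67-fold), and its controls stood at 6.88 and 6.66. Il7r, which IL-2 represses, was level between the deficient cultures, at 11.16 and 11.11 (0.06), although the controls differed by -2.30.

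**Figure D3:**
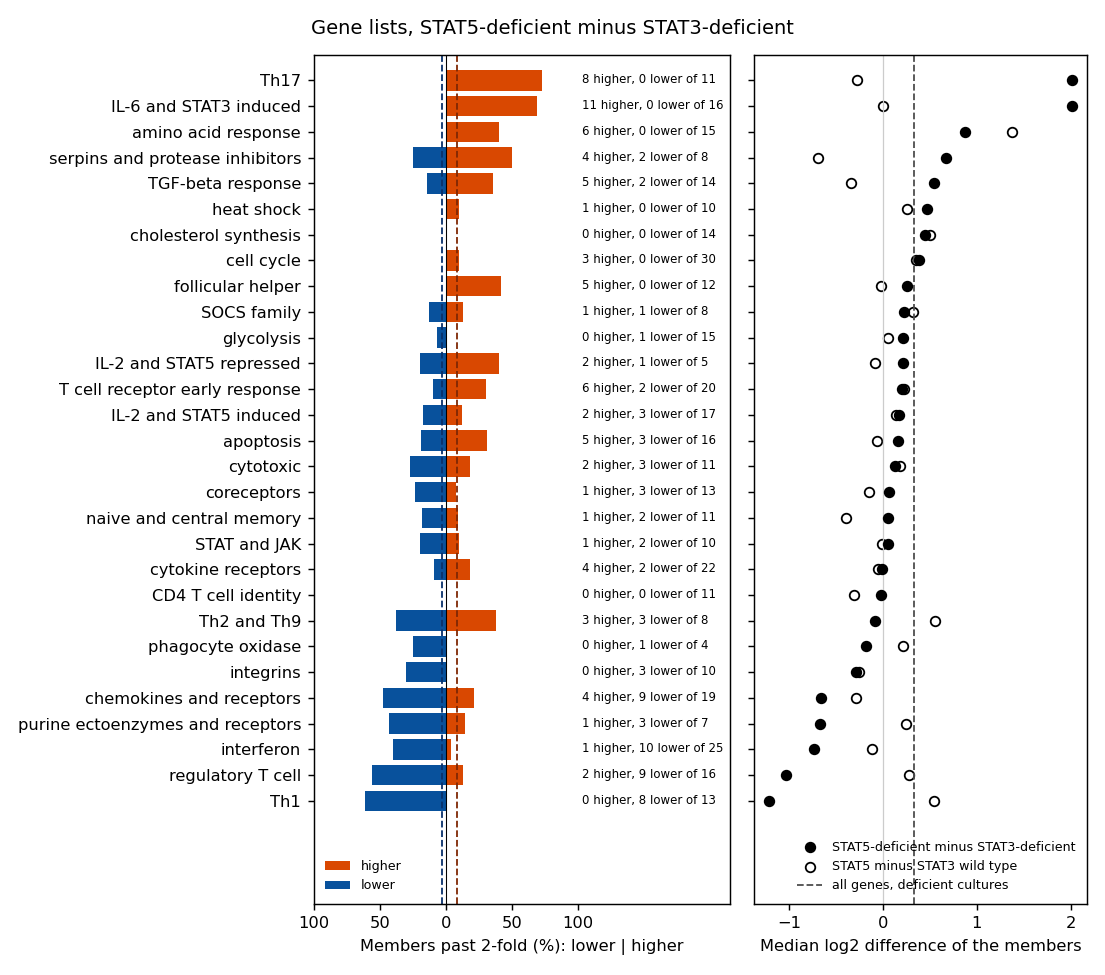
Left, share of measured members of each gene list that were higher or lower by 2-fold or more in STAT5-deficient than in STAT3-deficient cells, with dashed lines at 8.16% and 3.08% for all genes. Right, median log2 difference of each list between the deficient cultures (filled) and the controls (open), with the dashed line at 0.33; the Th17 and IL-6 lists stand farthest right at 2.02 and the Th1 list farthest left at -1.21.

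Amino acid and unfolded protein response genes are induced by the factors ATF4 and ATF6 when amino acids or folding capacity run short. All 15 measured members lay above 0 and 6 were higher, with a median of 0.87; between the controls 9 were higher with a median of 1.38. Chac1, which degrades glutathione, stood at 9.22 in STAT5-deficient and 7.33 in STAT3-deficient cells, and at 8.79 and 6.55 in the controls. Asns, asparagine synthetase, stood at 11.64 against 10.31, and at 11.90 and 9.78. For these genes both cultures with IL-2 lay above both without. Herpud1 (2.08, 4.23-fold) and Hspa5 (1.41), which act in the endoplasmic reticulum, were also higher, and their controls differed by 0.82 each. Loess centring left 2 members higher, with Asns at 0.86, Trib3 at 0.91, Slc7a5 at 0.70 and Hspa5 at 0.98.

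Other housekeeping programmes differed little. Cell cycle genes had 3 of 30 higher and 0 lower (median 0.39, or -0.07 after loess centring), led by Cdk6 at 12.66 against 10.79 (1.86). Glycolysis genes had 0 higher and 1 lower of 15, the glucose transporter gene Slc2a3 at 10.22 against 12.37 (-2.16, 4.45-fold), which ran the same way between the controls (-1.10). Cholesterol synthesis genes had 0 of 14 past 2-fold (median 0.45, and -0.02 after loess centring). Heat shock genes had 1 of 10, Hspa1b at 1.05, or 0.93 with arrays centred, and its controls differed the other way (-1.92).

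Among early response genes of the T cell receptor 6 of 20 were higher and 2 lower. Fos, Fosl2 (1.76) and Nr4a2 (1.79) were higher, and Nr4a3 was lower by its chosen probe set (9.31 against 11.83, -2.52), with -0.80 for the mean of its probe sets. TGF-beta response genes had 5 of 14 higher and 2 lower, and 3 higher after loess centring. Smad3, which carries the TGF-beta signal, differed by 1.96, but its other probe sets by 0.86 and 0.61. Id2, an inhibitor of E proteins, differed by 1.56. The related Id1 differed by -1.05, with its controls the other way (2.03).

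Surface receptors varied by family. Of 22 measured cytokine receptors 4 were higher and 2 lower (median -0.01), but 2 higher and 5 lower after loess centring (median -0.43). Besides Il1r1, Il4ra and Il6st, the shared IL-12 and IL-23 chain gene Il12rb1 was higher at 9.74 against 8.72 (1.02, or 0.63 after loess centring). The TGF-beta receptor genes Tgfbr1 (0.32) and Tgfbr2 (-0.11) and the interferon gamma receptor gene Ifngr1 (-0.81) stayed within 2-fold. Of 13 coreceptors 1 was higher and 3 lower; Cd28, the costimulatory receptor engaged in the culture, stood at 11.67 against 11.22.

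Integrins had 0 of 10 higher and 3 lower, among them Itgb3 (5.43 against 7.89, -2.46) and Itgae, the CD103 chain that binds E-cadherin (6.72 against 7.80, -1.09), whose controls differed alike (-1.04). The other Itgb3 probe set stood at 6.07 against 6.31 (-0.24). Itga4 (-1.92) came to -0.77 with probe sets averaged, although that average lay under 6.20 on every array. Of 7 genes of purine ectoenzymes and receptors 3 were lower and 1, P2ry6 (2.79), higher. The lower ones included Dpp4, a peptidase that binds adenosine deaminase (7.54 against 9.08, -1.54), and P2rx7, an ATP-gated channel (6.54 against 7.80, -1.26). Nt5e, the enzyme CD73 that makes adenosine, stood between 10.96 and 11.12 on every array. Naive and central memory genes had 1 of 11 higher and 2 lower. Satb1, a chromatin organiser, was the higher member, at 13.27 against 10.85 (2.42), with controls at 13.14 and 13.61, whereas Lef1 (-0.62), Foxo1 (0.55) and S1pr1 (0.63) did not pass. Among 8 SOCS family genes Socs3 and Socs2 alone passed, in opposite directions, and the other members lay between -0.29 and 0.50. Of 5 genes known to be repressed by IL-2, Bcl6 and Il6st were higher, Ccr7 lower, and Il7r and Il6ra (0.21) within 2-fold.

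In the apoptosis list 5 of 16 were higher and 3 lower, but 3 and 3 with arrays centred or probe sets averaged, and 2 and 4 after loess centring. Casp4, an inflammatory caspase, stood at 9.87 against 7.10 (2.77), and Bcl2l11, the death inducer Bim, at 7.38 against 10.16 (-2.77, 6.83-fold). In both the controls differed the same way, at 1.16 and -1.31. The 5 probe sets of Bcl2l11 were uneven, differing by -0.65 to -2.77. Of 8 measured serpins and protease inhibitors 4 were higher and 2 lower. Serpinb1a stood at 8.51 against 4.62 (3.90) and Serpinf1 at 10.15 against 6.97 (3.18, 9.07-fold), while Serpinb6b stood at 7.10 against 10.36 (-3.26). For Serpinb1a the controls differed the other way (-1.09). Ncf1, a subunit of the phagocyte oxidase, stood at 5.50 against 10.69 (-5.19), with 8.03 and 5.70 in the controls. Its partners Ncf4, Cyba and Rac2 lay between -0.25 and -0.02.

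Scin, an actin-severing protein, followed Xaf1 among the largest decreases, at 4.11 in STAT5-deficient and 10.07 in STAT3-deficient cells (-5.96), with both controls under 6.20. Car2, a carbonic anhydrase, stood at 7.30 against 12.38 (-5.07, 33.6-fold) and Lad1, an anchoring filament protein, at 8.14 against 12.31 (-4.17, 18.0-fold). Agr3 (-4.94) and Trat1, which stabilises the T cell receptor complex (-4.71), had their STAT5-deficient values under 6.20. In all 5 the STAT3-deficient array was more than 2-fold above each of the other 3.

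That arrangement was common. Of the 1015 higher genes, 387 (38.1%) had a STAT3-deficient value at least 2-fold below each of the other 3 arrays, and 46 (4.53%) a STAT5-deficient value at least 2-fold above each of the other 3. Of the 383 lower genes, 187 (48.8%) had the STAT3-deficient array 2-fold above all others, and 35 (9.14%) the STAT5-deficient array 2-fold below all others. These counts describe how the 4 levels were placed and, since the genes were picked on 2 of those arrays, support nothing further. P2ry6, a receptor for UDP, was a case set by the STAT5-deficient array, at 7.10 against 4.31, 3.87 and 4.66.

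A minority of the calls had the same call between the controls. Of all 12440 genes compared, 2.35% were higher and 2.95% lower between the controls, the shares to set beside the following. Of the 1015 higher genes 100 (9.85%) were also higher by 2-fold between the controls, 74 were lower there and 841 (82.9%) lay within 2-fold. Of the 383 lower genes 67 (17.5%) were also lower between the controls, 28 were higher and 288 (75.2%) lay within 2-fold. Read from the control side, 34.2% of the 292 genes higher between the controls and 18.3% of the 367 lower were called the same way between the deficient cultures. Over all genes compared those calls took 8.16% and 3.08%. Across the 12440 genes, which are not independent replicates, the 2 differences had a Pearson correlation of 0.20 and a Spearman correlation of 0.32.

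**Figure D4:**
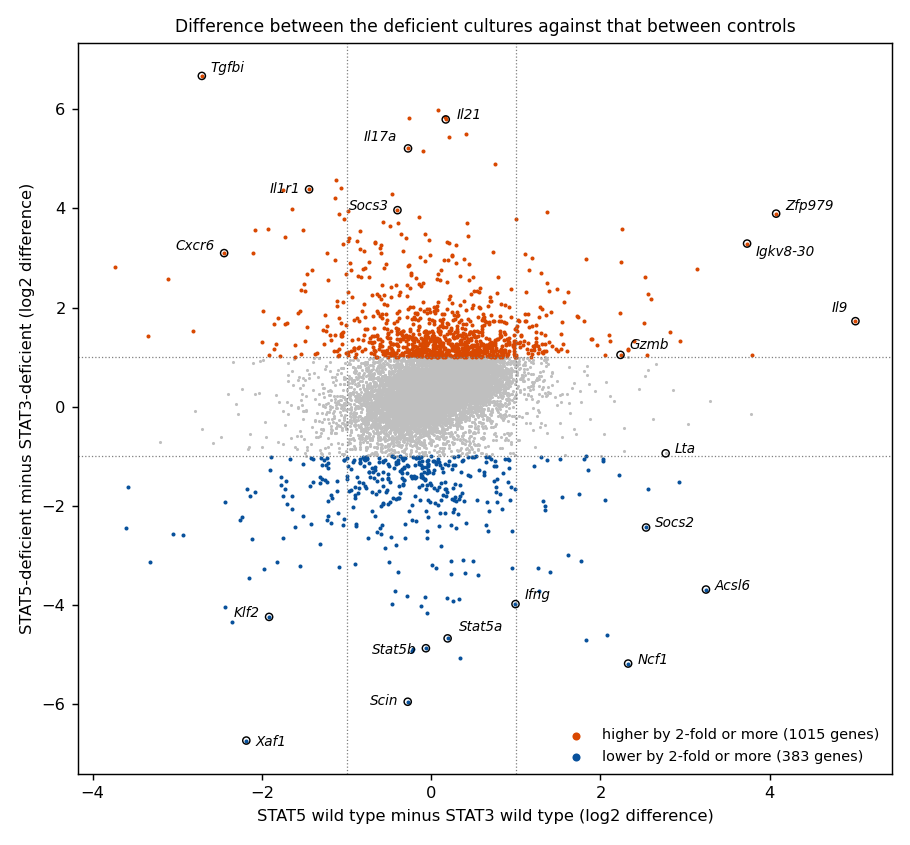
Difference between the deficient cultures (vertical, log2) against that between the controls (horizontal, log2), 1 point per gene; dotted lines mark 2-fold. Il17a, Il21 and Scin lie near the vertical axis, Tgfbi and Cxcr6 at upper left, Ncf1, Acsl6 and Socs2 at lower right, and Zfp979, Il9 and Klf2 in the corners where both differences have the same sign.

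Among genes that ran the same way in both pairs, 58 had both arrays of the STAT5 line at least 2-fold above both of the STAT3 line, and 31 at least 2-fold below. Zfp979, a zinc finger gene, stood at 6.88 in STAT5-deficient cells and 6.98 in their control, against 2.99 and 2.90 in the STAT3 line. The variable region genes Igkv8-30 (8.44 and 10.42 against 5.15 and 6.69) and Trav9d-3 (15.02 and 14.96 against 12.41 and 12.43) divided in the same way; such genes belong to large families whose copies a probe set may not separate. On the other side Klf2, which promotes exit from tissue through S1pr1, stood at 5.40 and 5.70 against 9.65 and 7.61, and Erdr1 at 8.46 and 9.93 against 12.83 and 12.29. Mid1 stood at 5.36 and 5.58 against 8.82 and 7.73. Whether such genes follow IL-2 or the floxed line cannot be told apart. Tgm2, a transglutaminase, differed by 3.93 (15.3-fold), with the controls at 1.36, and Lbp by 3.58 with the controls at 2.25. Mndal, an interferon-inducible gene, stood at 7.40 against 11.46 (-4.06, 16.7-fold), with 3.77 and 6.21 in the controls.

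Some genes crossed over between the pairs. Cdh17, a cadherin, stood at 8.53 in STAT5-deficient and 4.15 in STAT3-deficient cells (4.38), and at 6.79 and 8.54 in the controls (-1.75). Acsl6, an acyl-CoA synthetase, stood at 5.06 against 8.76 (-3.70), and at 7.29 and 4.05 in the controls (3.25). For Cdh17 the STAT5-deficient level was close to that of STAT3 wild type, which was grown without IL-2.

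STAT dimers are known to bind the palindrome TTCNNNGAA, which reads the same on both strands. It was searched in the RefSeq promoter windows of GRCm38.p6, from 250 bases before to 50 after each transcript start; no deposited value depends on this build. The letters were found in 8.30% of all windows. Of the genes compared that had a window, 8.17% of 10073 held a match in at least 1 window, as did 7.39% of 812 higher genes and 9.31% of 290 lower genes, shares close to each other. Matches upstream of the start are shown for 2 higher genes (Socs3 and Bcl6) and 2 lower genes (Nkg7 and Ncf1), chosen after their values were seen, to show what the letters look like in genes that went opposite ways. They lie at chr11:117969502-117969530 (minus strand), chr16:23988922-23989010 (minus strand), chr7:43436888-43436966 (plus strand) and chr5:134229665-134229753 (minus strand), and capitals mark the match.
Socs3: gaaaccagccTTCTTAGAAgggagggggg
Bcl6: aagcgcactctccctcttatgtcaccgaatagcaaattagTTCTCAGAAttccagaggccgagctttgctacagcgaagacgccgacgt
Nkg7: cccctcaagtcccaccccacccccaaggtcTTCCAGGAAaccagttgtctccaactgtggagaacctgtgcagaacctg
Ncf1: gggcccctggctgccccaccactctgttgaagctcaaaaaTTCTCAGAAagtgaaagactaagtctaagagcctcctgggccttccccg
Bcl6, 4.05-fold higher, and Ncf1, lower by 5.19 on the log2 scale, hold the same 9 letters, TTCTCAGAA. Another Bcl6 window, at chr16:23981234-23981533, held further matches with other middle letters. It is not shown, because a window was printed only where it held 1 match. A match is only a description of the sequence, not evidence of binding.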

How the data were processed

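Values for 4 arrays were taken from the deposited table, 1 column per sample, with 45101 probe sets. Per the submitters' processing notes the authors used Affymetrix Power Tools; for its version, the summarisation and the centring, nothing is stated. Values as deposited run from 2.48 to 15.09 and were read as log2; the base is not stated, and another base would change every fold. Samples were grouped by title.

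The platform annotation names 1 gene for 34958 probe sets, several for 932 and none for 9211; the last 2 kinds were left out. Of the first kind, 99.4% matched RefSeq (GRCm38.p6) by Entrez identifier, used for names, with 0 symbols changed. A gene takes its probe set with the highest mean over the 4 arrays, and was kept where its highest value exceeded 6.20 (percentile 50), which left 68.4% of genes. Differences were computed in Python 3.11.15 with pandas 2.3.3, and the loess curve (span 0.4) with statsmodels 0.14.6. The calling step was tested on simulated data.

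The comparison and the gene lists (35, of which cell type markers form 6) were chosen with earlier results of these data known. A gene may belong to several lists. Named genes are 21 fixed ones, the 12 genes farthest in each direction with all probe sets in agreement on the sign, up to 4 members per list, and 5 each way for genes whose controls differed by under 1.5-fold, the opposite way or the same way; other list members, Trav9d-3 and the line pairs were chosen after their values were seen. Alternatives were the mean of probe sets, no _s_at or _x_at probe sets, other filters and thresholds, array median centring and loess centring. Where a gene had several probe sets above 6.20 (5557 genes), the median SD of their differences was 0.24.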

Additional observations from a re-analysis of the deposited data

How the results depend on the processing

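The counts depend on the scaling and the threshold. Loess centring gave 494 higher and 602 lower genes in place of 1015 and 383. A filter at percentile 75 (8.29) gave 208 lower genes. A threshold of 1.5-fold gave 3486 higher and 782 lower, and of 3-fold 310 and 190. The share of higher genes also higher between the controls, 9.85% as reported, was 16.9% with arrays centred, 19.6% at 1.5-fold and 5.16% at 3-fold, and that of lower genes, 17.5%, was 30.3% at 1.5-fold. Averaging probe sets, leaving out _s_at and _x_at probe sets, no filter, and requiring 6.20 on a deficient array (chosen after seeing the data) kept these counts and shares within 1.5 times; the last gave 987 higher and 374 lower. Of 115 named genes compared, 11 lost and 1 gained the 2-fold call after loess centring, and 5 and 1 with arrays centred. With probe sets averaged 108 kept their side of 2-fold, 2 lost and 1 gained the call. The rest, among them Entpd1 and Itga4, had averages under 6.20 on every array and were not counted. No paired analysis was possible because each group has 1 array. The number of arrays, 1 a side, limits every value, and values under 6.20 set no size.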
